A study of Homo sapiens with 16 samples.

Results

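The 4 IFIT genes (IFIT1, IFIT2, IFIT3 and IFIT5) and the 3 IFITM genes (IFITM1, IFITM2 and IFITM3) were followed through an RNA-seq experiment in T47D cells. They are the 7 features, of 78894 genes and other features in the deposited table, whose gene name was on a list of interferon-induced family members. The list was chosen with earlier results of these data known. All 7 had at least 1 CPM (counts per 1000000 assigned reads) in at least 4 libraries and were tested. T47D is an established human cell line of luminal, estrogen receptor-positive breast cancer. FAH, the last enzyme of tyrosine breakdown, had been knocked out in part of the cells, and the controls held a control guide. Both genotypes received vehicle (DMSO) or 500 nM of abemaciclib for 3 days, a drug that inhibits CDK4 and CDK6, kinases needed to enter the cell cycle. The 4 groups (control vehicle, control abemaciclib, knockout vehicle and knockout abemaciclib) held 4 libraries each. Whether the knockout was a clone or a pool of cells, and which guides were used, is not given in the sources used here. The title of the series places FAH in resistance to such kinase inhibitors.

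Interferons bound to their receptors activate the kinases JAK1 and TYK2, and a complex that holds STAT2 and IRF9 then binds the interferon-stimulated response element in the promoters of antiviral genes. IFIT proteins are among the products: they are cytosolic proteins with tetratricopeptide repeats. IFIT1 binds RNA whose cap lacks ribose methylation, a mark that host enzymes place on the cell's own mRNA, and IFIT3 binds and stabilises IFIT1. IFITM proteins are small membrane proteins that hinder the fusion of enveloped viruses with the cell, IFITM1 mostly at the cell surface and IFITM2 and IFITM3 mostly in endosomes.

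The promoters are shown for the interferon-stimulated response element. The members were listed as interferon-induced, so matches to this element are linked to how they were chosen. The matches are given as a description. RefSeq promoter windows (GRCh38.p14, 250 bases before to 50 bases after a transcription start) were at hand for 5 of the 7 members, with 2 starts for IFIT3, and not for IFIT2 and IFITM2. The core of the interferon-stimulated response element was searched as GAAANNGAAA and, on the other strand, TTTCNNTTTC. It was found in all 6 windows, with 3 matches in IFIT5 and 2 in each of the other windows. Over 35116 RefSeq windows of the same length, 1255 (3.57%) held a match and 91 (0.259%) held at least 2. The stretches below run from 160 bases before to 10 bases after the start, 5′ to 3′ along the gene, and capitals mark the core.
IFIT3 start 1, chr10:89327837-89328006, plus strand: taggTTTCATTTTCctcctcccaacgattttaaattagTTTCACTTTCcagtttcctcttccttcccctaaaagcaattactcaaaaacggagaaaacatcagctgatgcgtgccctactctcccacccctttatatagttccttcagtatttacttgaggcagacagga
IFIT3 start 2, chr10:89332369-89332538, plus strand: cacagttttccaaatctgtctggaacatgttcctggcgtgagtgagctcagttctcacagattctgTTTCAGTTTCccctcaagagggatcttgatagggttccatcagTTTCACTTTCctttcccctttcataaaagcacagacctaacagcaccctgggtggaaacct
IFIT1, chr10:89392463-89392632, plus strand: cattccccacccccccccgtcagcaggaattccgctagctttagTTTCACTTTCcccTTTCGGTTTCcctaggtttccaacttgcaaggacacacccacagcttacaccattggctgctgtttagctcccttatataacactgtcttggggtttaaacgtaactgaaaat
IFIT5, chr10:89414408-89414577, plus strand: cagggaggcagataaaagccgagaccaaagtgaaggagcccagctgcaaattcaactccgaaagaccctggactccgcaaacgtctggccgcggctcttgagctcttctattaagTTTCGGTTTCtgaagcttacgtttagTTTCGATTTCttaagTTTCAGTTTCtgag
IFITM1, chr11:313880-314049, plus strand: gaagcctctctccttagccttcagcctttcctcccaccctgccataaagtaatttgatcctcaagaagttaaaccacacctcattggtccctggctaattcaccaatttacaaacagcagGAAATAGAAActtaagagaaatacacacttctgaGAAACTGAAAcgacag
IFITM3, chr11:320851-321020, minus strand: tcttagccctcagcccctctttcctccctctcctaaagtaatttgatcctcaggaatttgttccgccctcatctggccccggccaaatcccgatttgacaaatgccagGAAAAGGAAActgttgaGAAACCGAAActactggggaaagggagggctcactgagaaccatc
Counted from the start with no position 0, the core nearest to it lay at -4 to 6 in IFIT5 and at -6 to 4 in IFITM1, so that both reached across the start. In IFITM3 the cores lay at -52 to -43 and -35 to -26, and in IFIT1 at -116 to -107 and -103 to -94. The cores of the first IFIT3 start lay farthest away, at -156 to -147 and -122 to -113. The IFIT windows held the core as TTTCNNTTTC along the gene, and the IFITM1 and IFITM3 windows as GAAANNGAAA. The interferon-gamma activated sequence, TTCNNNGAA on either strand, was found in IFITM1 alone, at -12 to -4, where it overlapped the core at -6 to 4. It was present in 7.66% of all windows. A match is a run of letters and was not tested for binding.

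**Figure D1:**
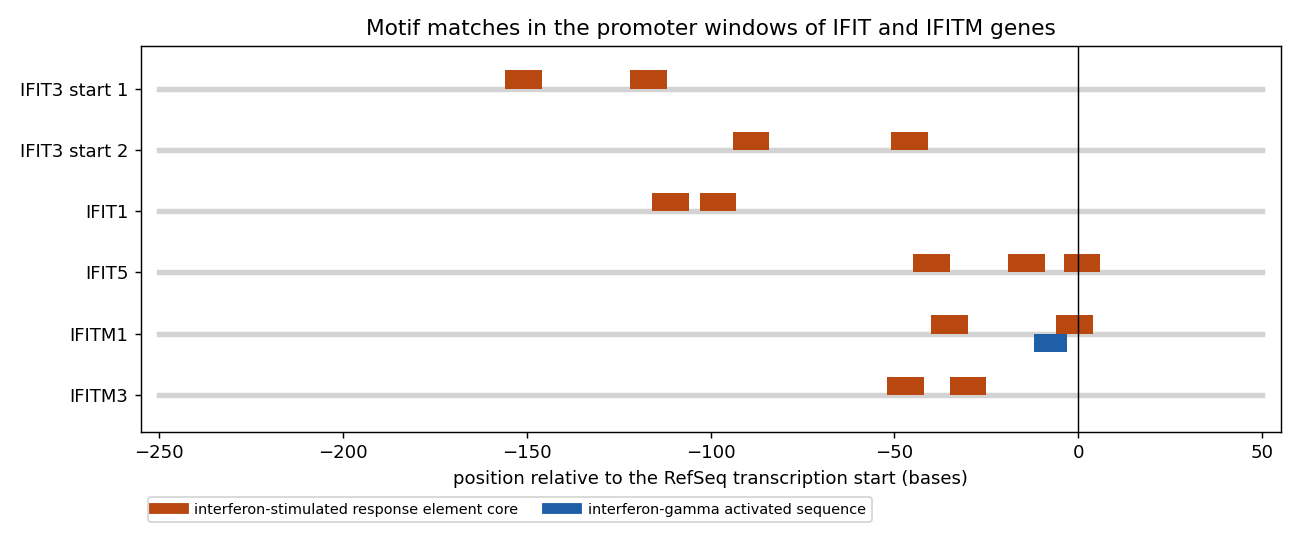
Each grey line is a RefSeq promoter window from 250 bases before to 50 bases after the transcription start (x axis, in bases), orange bars are matches to the interferon-stimulated response element core and the blue bar is the interferon-gamma activated sequence. All 6 windows hold at least 2 orange bars, and the blue bar is in IFITM1 only.

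The libraries held between 9915776 and 11963093 assigned reads, so 1 CPM stood for 9.92 to 11.96 reads. Members ranged from IFIT2, with 20 to 31 reads per control vehicle library, to IFIT1, with up to 1557 reads in a knockout abemaciclib library. FAH, the targeted gene, was at 25.1, 27.5, 25.2 and 28.2 CPM in the control vehicle libraries and at 6.77, 6.53, 6.27 and 7.02 CPM in the knockout vehicle libraries. Under abemaciclib it was at 23.4, 24.1, 25.8 and 22.6 CPM in control and at 5.03, 5.67, 6.79 and 5.54 CPM in knockout libraries. FAH mRNA in knockout libraries was thus 25.1% of control under vehicle and 24.0% under abemaciclib, with no overlap (exact two-sided permutation p = 0.0286 in each treatment, the smallest that 4 against 4 libraries allow). The 8 luminal epithelial markers were present in all libraries. Under vehicle 4 were higher in knockout than in control cells and 4 lower at a limma adjusted p under 0.05 (24.6% and 13.1% of all tested genes). The log2 differences included 0.90 for KRT8 and 0.85 for KRT18, and -0.35 for ESR1 and -0.31 for GATA3. The 7 leukocyte markers summed to at most 6.65 CPM and plasmacytoid dendritic and endothelial markers to at most 0.179 CPM. IL3RA, a plasmacytoid dendritic marker, was not found under that symbol and is not in the sum. Of 5 fibroblast markers, COL1A1 and LUM were over 1 CPM, summed levels ran from 41.9 to 64.5 CPM, and both were higher in knockout than in control cells under vehicle (log2 difference 0.35 and 0.48; limma, adjusted p = 1.07e-05 and 0.0258). LUM was also higher in knockout cells under abemaciclib (0.77, limma adjusted p = 0.000581) and with the drug in control (0.48, 0.0175) and knockout cells (0.78, 0.000359), and COL1A1 with the drug in control cells (0.33, 1.35e-05). The part of these markers in the results was not tested. Replicate 1 of control abemaciclib stood apart from the other 3 libraries of its group, at a chi-square of 1.65 to 1.94 per gene against 1.17 to 1.30 among those 3. The labels do not say that replicates came from separate cultures, so the p-values below speak of the spread among libraries alone, and that spread may be technical. In bulk RNA, fewer cells making a transcript and less of it per cell cannot be told apart.

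Knockout and control cells under vehicle show the families without the drug. All 7 members were higher in knockout cells, and no knockout library overlapped a control library for any of them. The 4 IFIT genes and IFITM3 were at 2.08 to 4.16 times the control level, and IFITM1 and IFITM2 at 1.44 and 1.41 times. The median log2 difference of the members was 1.40, against 0.06 over all 16218 tested genes. The members were chosen with earlier results known, so this contrast and the ranks below may reflect that choice. In this comparison 24.6% of all tested genes were called higher and 22.2% were higher without overlap. Differences here and below are of log2(CPM + 1), which understates the change of low genes, and are called at a limma p, adjusted over all tested genes, under 0.05.

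IFIT1 was at 26.1, 25.5, 24.4 and 27.3 CPM in the control vehicle libraries and at 85.7, 80.6, 80.0 and 81.3 CPM in the knockout vehicle libraries. Each knockout library was far above each control library, and the log2 difference was 1.63 (SE 0.0439, limma adjusted p = 1.30e-24). IFIT3, the partner of IFIT1, was at 10.99, 8.48, 8.27 and 9.36 CPM in control and at 36.9, 40.8, 39.1 and 37.7 CPM in knockout libraries. Its log2 difference of 1.95 (SE 0.0706, adjusted p = 3.94e-21, limma) ranked 3 of 16218 from the top, and those of IFIT1 and IFIT2 ranked 9 and 21. IFIT2, which binds AU-rich RNA, was the lowest in reads, at 3.13, 2.58, 2.02 and 2.45 CPM in control and 9.19, 8.78, 7.34 and 7.85 CPM in knockout libraries. The groups were well separated despite the small counts (log2 difference 1.40, SE 0.103, limma adjusted p = 6.79e-13). IFIT5, which binds RNA with a free triphosphate end, was at 8.47, 10.0, 9.68 and 9.52 CPM in control and at 19.6, 20.4, 19.2 and 19.0 CPM in knockout libraries. Its log2 difference was 0.98 (SE 0.0718, limma adjusted p = 4.88e-13), below those of the other IFIT genes.

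Among the IFITM genes, IFITM3, which acts on viruses that enter through endosomes, was at 21.0, 18.8, 20.9 and 20.2 CPM in control and at 52.0, 58.8, 54.2 and 62.1 CPM in knockout vehicle libraries. The log2 difference was 1.44 (SE 0.0606, limma adjusted p = 2.97e-19) and ranked 15 of 16218. IFITM1 was at 18.1, 17.5, 18.4 and 19.4 CPM in control and at 24.2, 25.9, 27.5 and 27.7 CPM in knockout libraries, a log2 difference of 0.50 (SE 0.0585, limma adjusted p = 2.31e-08). IFITM2 was at 31.7, 33.2, 33.0 and 28.3 CPM in control and at 47.3, 44.4, 40.0 and 46.8 CPM in knockout libraries, a log2 difference of 0.49 (SE 0.0598, limma adjusted p = 5.45e-08). For both genes the groups lay close together without touching, and their differences ranked 742 and 785. The count of 7 held under all 25 alternative settings. With median-of-ratios rescaling, 17.4% of all tested genes were called higher and 18.4% lower in this comparison, in place of 24.6% and 13.1%.

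**Figure D2:**
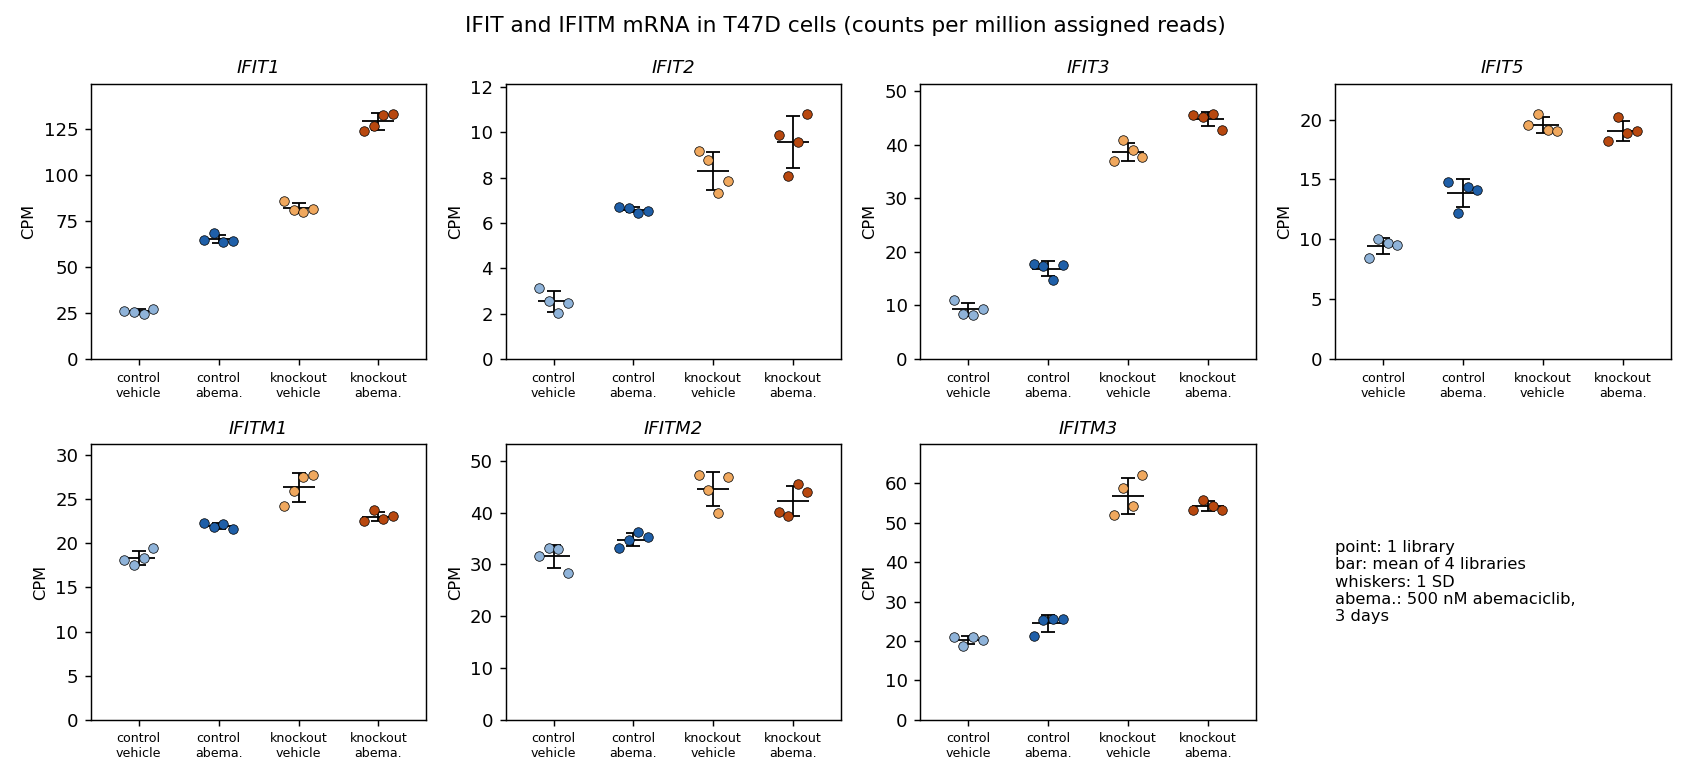
Each panel shows 1 gene in CPM (y axis, from 0) with a point per library, a bar at the mean of 4 libraries and whiskers of 1 SD; "abema." is abemaciclib. The IFIT1, IFIT3 and IFITM1 groups do not overlap in any pair, and IFITM1 is the gene of these 3 whose knockout libraries are lower under abemaciclib than under vehicle.

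Under abemaciclib, knockout cells were again higher than control cells in 6 of the 7 members, and IFITM1 was not called. In this comparison 18.6% of all tested genes were called higher (13.1% after median-of-ratios rescaling) and 16.5% were higher without overlap. The median of the members was 0.47, against 0.04 over all tested genes. IFIT3 was at 17.7, 17.3, 14.8 and 17.5 CPM in control and at 45.5, 45.1, 45.7 and 42.7 CPM in knockout abemaciclib libraries (log2 difference 1.36, SE 0.0706, limma adjusted p = 7.65e-17). IFITM3 was at 21.3, 25.3, 25.7 and 25.6 CPM in control and at 53.2, 55.9, 54.3 and 53.2 CPM in knockout libraries (1.12, SE 0.0606, adjusted p = 2.73e-16). Both genes were over 2-fold apart, and the low control library of IFITM3 is the replicate that stood apart: without it the difference was 1.05. IFIT1 was at 64.6, 68.5, 63.4 and 63.8 CPM in control and at 124, 127, 132 and 133 CPM in knockout libraries, a log2 difference of 0.98 (SE 0.0439, limma adjusted p = 2.24e-18).

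The other members differed less under abemaciclib. IFIT2 was at 6.73, 6.66, 6.46 and 6.55 CPM in control and at 9.88, 8.06, 9.60 and 10.8 CPM in knockout libraries (0.47, SE 0.103, limma adjusted p = 0.000581). IFIT5 was at 14.8, 12.2, 14.4 and 14.2 CPM in control and at 18.2, 20.2, 18.9 and 19.1 CPM in knockout libraries (0.44, SE 0.0718, limma adjusted p = 1.28e-05). The knockout libraries were above the control libraries throughout for these genes. IFITM2 was at 33.1, 34.7, 36.2 and 35.2 CPM in control and at 40.2, 39.4, 45.5 and 43.9 CPM in knockout libraries (0.27, SE 0.0598, limma adjusted p = 0.000631). IFITM1 was at 22.3, 21.8, 22.2 and 21.6 CPM in control and at 22.6, 23.7, 22.7 and 23.1 CPM in knockout libraries. Its groups did not overlap, but the log2 difference of 0.07 (95% interval -0.05 to 0.18) was not called (limma adjusted p = 0.442). The count of 6 held under all 25 alternatives.

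Abemaciclib against vehicle in control cells asks how the families moved with the drug alone; it shares the control vehicle libraries with the first comparison. All 7 members rose, where 19.6% of all tested genes were called higher and 31.1% lower (25.7% and 24.8% after median-of-ratios rescaling). The median of the members was 0.51 and that of all genes -0.05. IFIT1 rose from 25.8 ± 1.23 to 65.1 ± 2.32 CPM (mean ± SD, n = 4 per group here and below), a log2 difference of 1.30 (SE 0.0439, limma adjusted p = 1.08e-22). IFIT2 rose from 2.54 ± 0.457 to 6.60 ± 0.118 CPM (1.11, SE 0.103, limma adjusted p = 5.06e-11). IFIT3 and IFIT5 rose by 0.80 and 0.51 on the log2 scale (limma adjusted p = 1.45e-11 and 2.88e-07), to 1.81 and 1.47 times their vehicle levels. None of the 4 IFIT genes overlapped between groups, in a comparison where 16.1% of all tested genes were higher without overlap.

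The IFITM genes moved little with the drug in control cells. IFITM3 rose from 20.2 ± 1.03 to 24.5 ± 2.13 CPM (log2 difference 0.26, SE 0.0606, limma adjusted p = 0.000517), and by 0.32 without replicate 1 of control abemaciclib. IFITM1 rose from 18.4 ± 0.793 to 22.0 ± 0.331 CPM (0.25, SE 0.0585, limma adjusted p = 0.000605). Neither overlapped between groups, in a comparison where 16.1% of all tested genes were higher without overlap. IFITM2 went from 31.5 ± 2.29 to 34.8 ± 1.27 CPM, with overlapping libraries, and its log2 difference of 0.14 (SE 0.0598) was called at a limma adjusted p of 0.0494. That call was lost under 15 of 25 alternatives, and without replicate 4 of control vehicle, the lowest library, the difference was 0.09 (limma adjusted p = 0.234).

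In knockout cells the same drug treatment, which shares the knockout vehicle libraries with the first comparison, gave 2 members higher, 1 lower and 4 not called. Of all tested genes 11% were called higher and 27.4% lower (19.6% and 17.8% after median-of-ratios rescaling). The median of the members was -0.03 and that of all genes -0.07, and quantile normalization shifted the latter by 0.102 to 0.03. IFIT1 rose from 81.9 ± 2.60 to 129 ± 4.36 CPM (log2 difference 0.65, SE 0.0439, limma adjusted p = 3.03e-14), with no overlap between groups. IFIT3 rose from 38.6 ± 1.73 to 44.8 ± 1.36 CPM (0.21, SE 0.0706, limma adjusted p = 0.0185), also without overlap, where 10.4% of all tested genes were higher without overlap and 25.5% lower. The IFIT3 call was lost without replicate 1 of knockout vehicle (0.19, limma adjusted p = 0.0592) and without the filter on low genes (limma adjusted p = 0.0762).

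IFITM1 fell from 26.4 ± 1.63 to 23.03 ± 0.533 CPM in knockout cells (log2 difference -0.19, SE 0.0585, limma adjusted p = 0.0115), the opposite direction to control cells. This call depended on the scaling: after median-of-ratios rescaling the difference was -0.10 (limma adjusted p = 0.200) and after quantile normalization -0.08 (0.296). IFIT2 was at 8.29 ± 0.845 and 9.58 ± 1.14 CPM (0.19, 95% interval -0.02 to 0.40, limma adjusted p = 0.162), and was called higher after rescaling (0.27, 0.0399) or quantile normalization (0.33, 0.0107). IFIT5, at 19.6 ± 0.637 and 19.1 ± 0.828 CPM, had a difference of -0.03 (95% interval -0.18 to 0.11). IFITM2 and IFITM3 had differences of -0.08 (95% interval -0.20 to 0.05) and -0.06 (-0.19 to 0.06), at 44.6 ± 3.34 and 42.3 ± 2.94 CPM for IFITM2 and 56.8 ± 4.56 and 54.1 ± 1.27 CPM for IFITM3. These 3 genes overlapped between groups, were called under none of the alternatives and turned to small positive values under both rescalings.

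**Figure D3:**
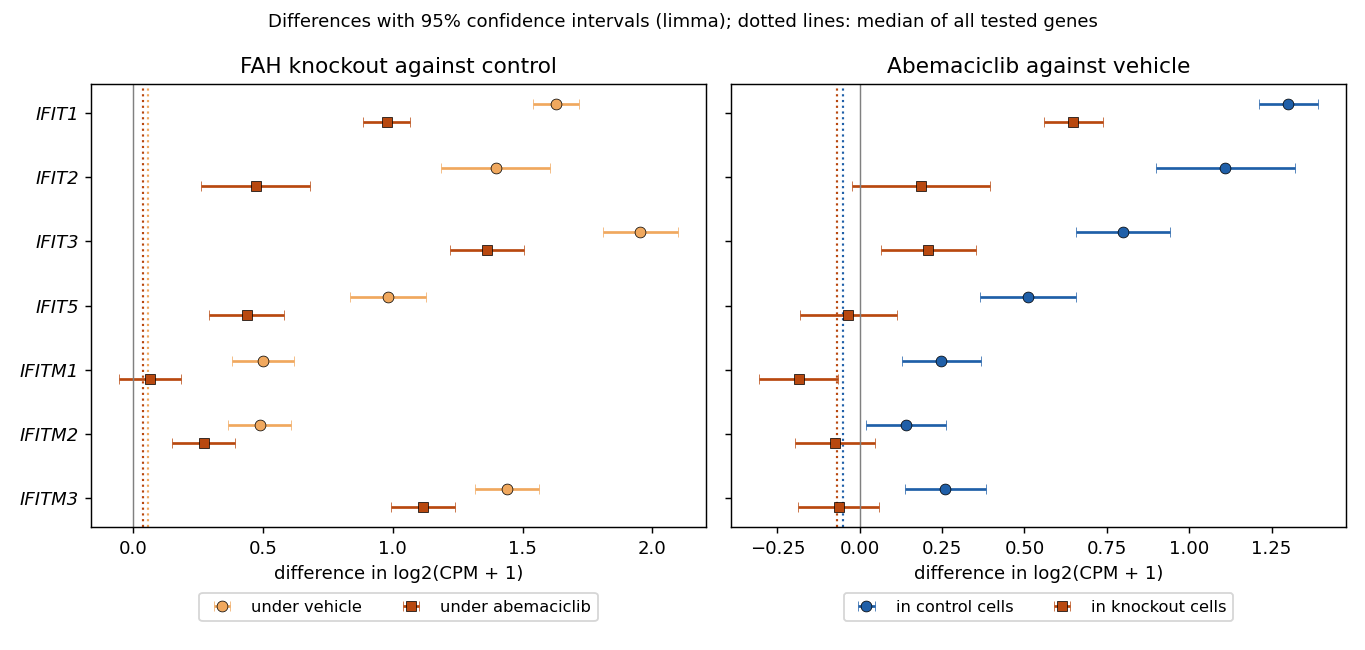
Differences in log2(CPM + 1) with 95% confidence intervals (x axes) for each member, of knockout against control under vehicle (circles) and abemaciclib (squares) on the left and of abemaciclib against vehicle in control (circles) and knockout cells (squares) on the right; dotted lines are medians of all tested genes. Each square lies to the left of its circle, from 1.63 to 0.98 for IFIT1 and from 0.50 to 0.07 for IFITM1 on the left.

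The interaction tests whether the drug effect differed between genotypes, which is the same as whether the genotype effect differed between treatments. It was negative for all 7 members and called for 6, where 6.16% of all tested genes were called lower and 4.68% higher (5.44% and 5.41% after median-of-ratios rescaling). IFIT2 had the largest value, -0.92 (SE 0.146, limma adjusted p = 3.33e-05), rank 21 from the bottom of 16218. Over the alternatives that left out no library it ran from -1.15 to -0.49, against -0.68 to -0.56 for IFIT1. Its first place among the members thus depended on the setting. IFIT1 had -0.65 (SE 0.0621, adjusted p = 3.59e-09), IFIT3 -0.59 (SE 0.0998, adjusted p = 8.38e-05) and IFIT5 -0.55 (SE 0.101, adjusted p = 0.000309) in the same limma fit. IFITM1 had -0.43 (SE 0.0828, limma adjusted p = 0.000419). IFITM3 had -0.32 (SE 0.0857, limma adjusted p = 0.0104), lost without the filter on low genes (0.0663). IFITM2 had -0.22 (SE 0.0846) and was not called (limma adjusted p = 0.0991), except without replicate 3 of knockout vehicle (-0.27, 0.0395).

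A negative interaction on the log2 scale means that knockout and drug together gave less than the product of their separate fold changes, and it need not hold in CPM. For IFIT1 the knockout minus control difference was 56.1 CPM (SE 1.44) under vehicle and 63.8 CPM (SE 2.47) under abemaciclib, so it grew by 7.77 CPM (SE 2.86) while the log2 difference shrank. For IFIT3 the same difference was 29.4 CPM (SE 1.06) and 27.9 CPM (SE 0.966), a change of -1.41 CPM (SE 1.44), within its error. For the other 5 members the difference was smaller under abemaciclib in CPM too. It went from 5.75 to 2.99 CPM for IFIT2 (change -2.76, SE 0.748), from 10.1 to 5.21 CPM for IFIT5 (-4.92, SE 0.846) and from 8.01 to 1.07 CPM for IFITM1 (-6.94, SE 0.960). It went from 36.5 to 29.7 CPM for IFITM3 (-6.86, SE 2.64) and from 13.1 to 7.45 CPM for IFITM2 (-5.62, SE 2.58), whose interaction was not called on the log2 scale. Knockout abemaciclib libraries were at 4.99 times the control vehicle mean for IFIT1, 4.83 times for IFIT3, 3.77 times for IFIT2, 2.68 times for IFITM3 and 2.02 times for IFIT5. For IFITM2 and IFITM1 the factors were 1.34 and 1.25.

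The order of the 4 groups differed between the genes. Separate groups are to be read against all tested genes. With the drug, 16.1% were higher without overlap in control cells, and 10.4% higher and 25.5% lower in knockout cells. For knockout against control, 22.2% were higher without overlap under vehicle and 16.5% under abemaciclib. No such share is given for control abemaciclib against knockout vehicle. For IFIT1 and IFIT3 it ran from control vehicle through control abemaciclib and knockout vehicle to knockout abemaciclib, and no neighbours in that order overlapped. IFIT2 had the same order of means, but its knockout groups overlapped. For IFIT5 and IFITM3 the knockout groups were the highest and overlapped, and the control groups below them were separate. For IFITM2 the groups of a genotype overlapped under both treatments, while the genotypes were apart. IFITM1 had an order of its own, control vehicle, control abemaciclib, knockout abemaciclib, knockout vehicle, with no neighbours overlapping. Its difference between the abemaciclib groups was not called, and that between the knockout groups lost its call after either rescaling.

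Ratios between members within a library describe the make-up of the families as counted. These pairs were picked after their values had been seen and carry no test. How reads were divided among genes is uncertain for IFIT3 and the single IFITM genes, and ratios with these genes depend on it. The ratio of IFIT3 to IFIT1 reads was 0.359 ± 0.0416 in control vehicle, 0.259 ± 0.0196 in control abemaciclib, 0.472 ± 0.0330 in knockout vehicle and 0.348 ± 0.0195 in knockout abemaciclib. It was thus higher in knockout than in control cells and lower with the drug than without it in each genotype. The ratio of IFIT5 to IFIT1 was 0.366 ± 0.0352 in control vehicle and 0.148 ± 0.00772 in knockout abemaciclib, with 0.214 ± 0.0241 and 0.239 ± 0.0109 in control abemaciclib and knockout vehicle. The ratio of IFIT2 to IFIT1 was close to 0.1 in 3 groups (0.0983, 0.101 and 0.101) and 0.0743 ± 0.00810 in knockout abemaciclib. The ratio of IFITM3 to IFITM1 was 1.10 ± 0.0568 and 1.12 ± 0.106 in the control groups and 2.15 ± 0.135 and 2.35 ± 0.0373 in the knockout groups. IFITM3 to IFITM2 went likewise, 0.645 ± 0.0623 and 0.702 ± 0.0408 in control against 1.28 ± 0.119 and 1.29 ± 0.105 in knockout cells, and IFITM2 to IFITM1 was between 1.59 and 1.84 in all groups. The knockout libraries thus lay apart from the control libraries in IFITM3 to IFITM1 and in IFITM3 to IFITM2, while in IFITM2 to IFITM1 the genotypes overlapped under vehicle. IFITM3 to IFIT1 was 0.785 ± 0.0581 and 0.377 ± 0.0349 in control vehicle and control abemaciclib. It was 0.694 ± 0.0685 and 0.420 ± 0.0182 in knockout vehicle and knockout abemaciclib, and the genotypes overlapped under both treatments.

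**Figure D4:**
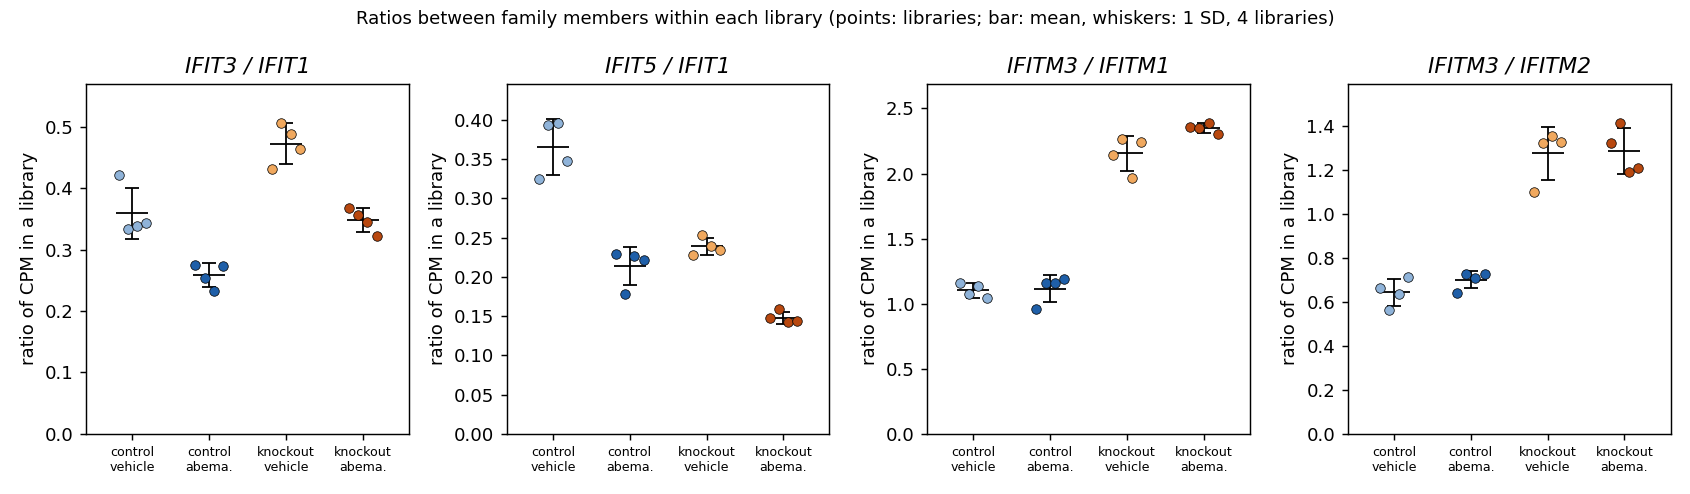
Ratios of CPM between pairs of members within a library (y axes, from 0), with a point per library, a bar at the mean of 4 and whiskers of 1 SD. IFITM3 to IFITM1 and IFITM3 to IFITM2 separate the knockout from the control libraries under both treatments. IFIT3 to IFIT1 and IFIT5 to IFIT1 are lower with abemaciclib in each genotype.

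The IFIT genes lie side by side on the plus strand of chromosome 10 (GENCODE 29 positions on GRCh38): IFIT2 at chr10:89283694-89309276, IFIT3 at chr10:89327894-89340971, IFIT1 at chr10:89392546-89406486 and IFIT5 at chr10:89414586-89421001. On chromosome 11 the annotated span of IFITM2, chr11:307631-315272, contains IFITM1, chr11:313506-315272, on the same strand, and 351 bases of exon, 32.5% of those of IFITM1, belong to both. IFITM3 lies at chr11:319669-327537 on the minus strand. Of the 50-base stretches of IFITM1, IFITM2 and IFITM3, 32.0%, 34.3% and 35.2% occur in the transcripts of any other gene. The shares are 1.02% for IFIT1, 7.91% for IFIT2, 3.64% for IFIT3 and 0% for IFIT5. IFITM1 and IFITM2 share most with each other (314 stretches), and the exon bases that belong to both can account for part of this. IFITM3 shares most with AC136475.5, a gene on the opposite strand (238 stretches), and less with IFITM2 (188) and IFITM1 (98). The deposited CPM came out as whole reads in 16 of 16 libraries for IFIT2 and IFIT5 and in 13 for IFIT1, but in 3 for IFIT3, 2 for IFITM1 and IFITM3 and 0 for IFITM2. Within the IFIT genes this did not follow the share of stretches found in other genes, which was higher in IFIT2 than in IFIT3. Most of the IFIT2 share was with AL353751.1 (7.50%), which was at 0 CPM in all libraries. The stretches are from GENCODE 29, and some of its genes, such as AC136475.5, have no value in the deposited data. The annotation used for counting may thus differ, so this comparison cannot show which genes shared reads. How reads were divided among genes is uncertain for the single IFITM genes and for IFIT3. The summed level of the 3 IFITM genes, which does not depend on how reads were divided among them, was 70.1 ± 1.88 and 81.3 ± 3.19 CPM in control vehicle and abemaciclib libraries and 128 ± 6.74 and 119 ± 2.78 CPM in knockout libraries. The knockout sums were above all control sums. The 4 IFIT genes summed to 47.1 ± 2.08, 102 ± 2.48, 148 ± 3.08 and 202 ± 4.28 CPM in control vehicle, control abemaciclib, knockout vehicle and knockout abemaciclib libraries, 4 levels without overlap.

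The rest of the pathway was read from lists chosen with earlier results of these data known. Their counts are of knockout against control under vehicle, to be read against the 24.6% of all tested genes called higher and 13.1% called lower there (17.4% and 18.4% after median-of-ratios rescaling). Of 9 interferon ligands none was tested, because all were below 1 CPM in each library: the highest were IFNL1 and IFNL3, at up to 0.771 and 0.746 CPM, IFNB1 reached 0.183 CPM, and IFNA1, IFNA2, IFNE and IFNK were listed at 0 throughout. Of 11 receptor and signalling genes reported here, knockout cells had 4 higher and 1 lower under vehicle, with a median of 0.14 against 0.06 over all genes, so the list lay near those shares. TYK2 was at 18.7 ± 0.793 CPM in control and 30.0 ± 1.37 CPM in knockout cells (log2 difference 0.65, limma adjusted p = 9.04e-11), and IRF9 was higher by 0.61 and STAT2 by 0.44. JAK1, the kinase shared by all interferon receptors, was lower, at 118 ± 2.69 CPM in control and 75.1 ± 3.51 CPM in knockout cells (-0.64, limma adjusted p = 5.81e-12), and lower again under abemaciclib (-0.92, limma adjusted p = 7.38e-16). The receptor chains IFNAR1 and IFNAR2 had differences of -0.02 and 0.14 and were not called. TYK2 also rose with the drug in control cells, by 0.27 (limma adjusted p = 0.000261), and was not called for it in knockout cells (-0.03, limma adjusted p = 0.705), with an interaction of -0.30 (limma adjusted p = 0.0152).

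Of 6 tested interferon regulatory factors, 4 were higher in knockout cells under vehicle and none was lower, beside 24.6% and 13.1% of all tested genes. IRF1, itself an interferon-induced activator, was at 3.76 ± 0.366 CPM in control and 11.4 ± 0.385 CPM in knockout cells (log2 difference 1.38, limma adjusted p = 3.85e-13). It was at 3.95 ± 0.742 CPM in control cells under abemaciclib and was not called for the drug there (0.05, limma adjusted p = 0.723). IRF7, IRF5 and IRF3 were higher in knockout cells by 0.73, 0.54 and 0.26. Of 6 genes of negative feedback, 3 were higher: ISG15, a ubiquitin-like modifier that also stabilises USP18, was at 52.9 ± 1.08, 123 ± 5.68, 174 ± 5.22 and 229 ± 9.09 CPM in control vehicle, control abemaciclib, knockout vehicle and knockout abemaciclib libraries. USP18 (0.34) and PIAS1 (0.14) lost their calls after median-of-ratios rescaling (limma adjusted p = 0.0689 and 0.272), which left 1 of the 6. Of 4 genes for methylation of the mRNA cap which IFIT1 reads, CMTR1, the ribose methyltransferase, was higher in knockout cells under vehicle (0.22, limma adjusted p = 0.00224) and the other 3 were not called; after that rescaling RAMAC was lower (-0.19, limma adjusted p = 0.00607). Of 5 proteins that modify or bind IFITM proteins, ZMPSTE24, a protease that acts with them, was higher (0.23), and ZDHHC20, which attaches palmitate to IFITM3, was lower (-0.22). VAPA, a partner of IFITM3, was lower by a small amount (-0.11, limma adjusted p = 0.0442), a call lost under 9 of 25 alternatives.

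The genes beside each cluster were also read. Of 6 tested neighbours on chromosome 10, none was higher and 3 were lower in knockout cells under vehicle, where 24.6% of all tested genes were called higher and 13.1% lower (17.4% and 18.4% after median-of-ratios rescaling): FAS by 0.36, ACTA2 by 0.29 and KIF20B by 0.15 on the log2 scale. LIPA, on the opposite strand of IFIT2, IFIT3 and IFIT1 and sharing 65 bases of exon with IFIT2, was at 35.1 ± 1.76 CPM in control and 37.6 ± 2.28 CPM in knockout cells (0.09, limma adjusted p = 0.219). Of 11 tested neighbours of the IFITM genes, 7 were higher and none was lower (6 higher after that rescaling), beside the same shares. The largest differences were those of SIGIRR (0.43), ANO9 (0.40), PTDSS2 (0.39) and PGGHG (0.38), beside 0.50 for IFITM1 and 0.49 for IFITM2. Under abemaciclib 1 of the 11, SIGIRR, was higher in knockout cells (0.30), where 18.6% of all tested genes were.

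**Figure D5:**
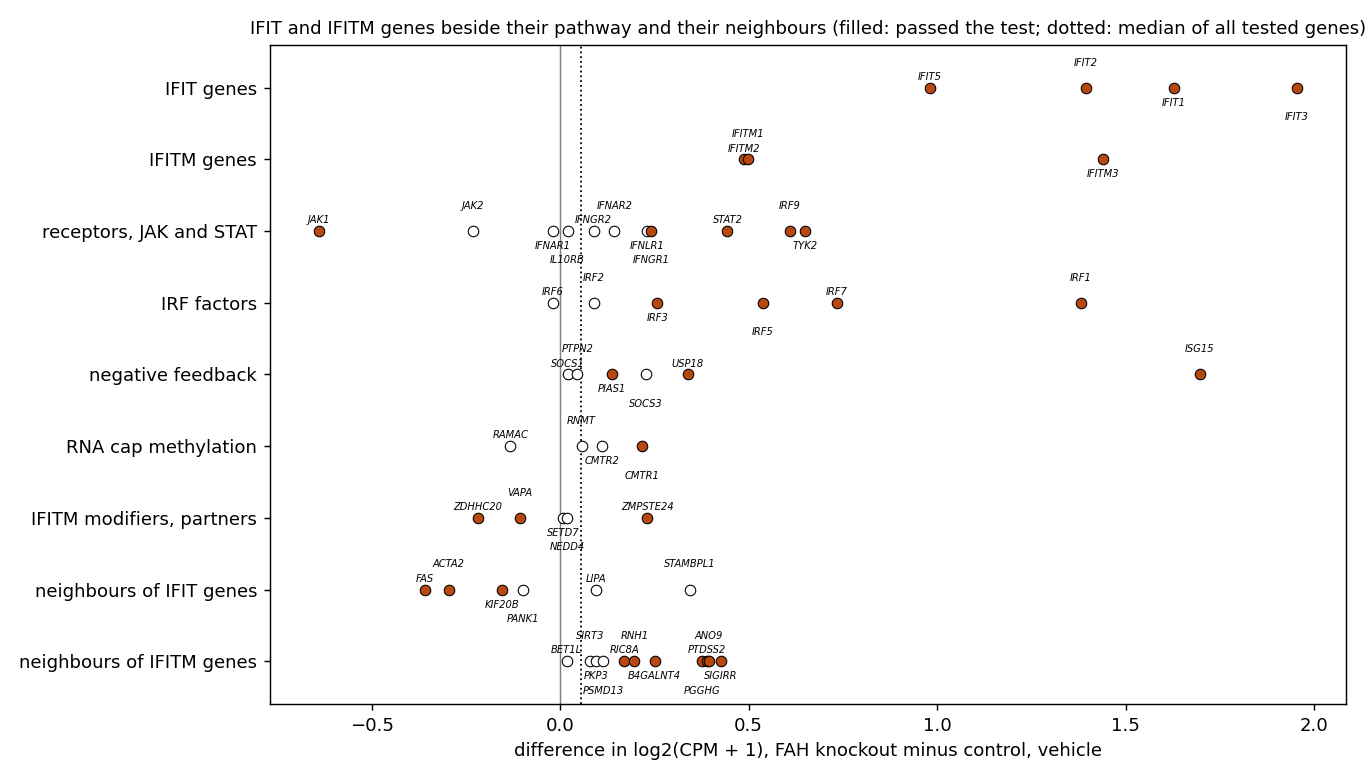
Differences in log2(CPM + 1) between knockout and control under vehicle (x axis) for the members, the pathway lists and the genomic neighbours (rows); filled circles passed the test, open circles did not, and the dotted line is the median of all tested genes, 0.06. The IFIT genes, IFITM3, IRF1 and ISG15 lie farthest to the right, and JAK1 farthest to the left.

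Other genes of the families were low, apart from IFITM10. IFIT1B was at most 0.0943 CPM, IFITM5 was listed at 0 in all libraries, and among the pseudogenes IFITM3P1 was highest, at up to 0.680 CPM. IFITM10, a more distant relative, was at 10.7 ± 1.28 CPM in control vehicle and 11.9 ± 0.411 CPM in knockout vehicle libraries and was not called there (0.15, limma adjusted p = 0.160). It rose with abemaciclib in control cells, to 21.7 ± 1.10 CPM (0.96), and in knockout cells, to 17.5 ± 2.04 CPM (0.51), and under the drug the knockout level was the lower one (-0.30, limma adjusted p = 0.00443). Its interaction was negative, as for the members (-0.45, limma adjusted p = 0.00808).

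The genes most like each member were taken by Pearson correlation of log2(CPM + 1) over the 16 libraries, among 10111 protein-coding genes, as a description without a test, since the points share their 4 groups. For IFIT1 they were MX1 (0.996), C14orf132 (0.992) and ISG15 (0.991), and for IFIT2 MYCL (0.971), ISG15 (0.971) and RIGI (0.969). For IFIT3 they were OAS1 (0.996), ARRDC1 (0.993) and OPTN (0.990), and for IFIT5 TACC1 (0.976), TESK2 (0.969) and CASP4 (0.969). MX1, an antiviral GTPase, went from 70.6 ± 1.93 to 146 ± 5.02 CPM with the drug and stood at 183 ± 3.83 and 245 ± 8.95 CPM in the knockout groups, as IFIT1 did in 4 steps. OAS1, a sensor of double-stranded RNA, was at 10.1 ± 0.667 and 16.8 ± 1.11 CPM in control and at 39.6 ± 2.43 and 42.6 ± 1.61 CPM in knockout groups, close to IFIT3 in shape. For IFITM3 the nearest were ZNF703 (0.983), NFKBIA (0.981) and RELB (0.980), the last of which, a subunit of NF-kappaB, was at 2.88 ± 0.522 and 3.39 ± 0.838 CPM in control and at 15.1 ± 1.35 and 13.8 ± 0.994 CPM in knockout groups. For IFITM2 they were NMI (0.949), SOX12 (0.940) and TADA3 (0.940), and for IFITM1 SAFB2 (0.931), SORL1 (0.920) and PTP4A2 (0.899). Among the members the highest correlations were those of IFIT1 with IFIT2 (0.967) and of IFIT3 with IFITM3 (0.963), and the lowest that of IFIT1 with IFITM1 (0.760).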

How the data were processed

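RNA of 16 T47D libraries was sequenced, and the authors deposited a single table of CPM (counts per 1000000 assigned reads) for 78986 features, 92 of them spike-in controls. Per the submitters' processing notes the tools were STAR 2.7.11, SAMtools 1.22.1, featureCounts of Subread 2.1.1 and MultiQC 1.32, on GRCh38; how reads with several hits or the strand were treated is not given in the sources used here. Each library summed to 1000000 CPM, and the step between low values gave 9915776 to 11963093 assigned reads per library. Only 32.5% of the tested genes were whole reads in all libraries (within 0.02 of a read), so no count test was run.

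Groups were taken from the sample titles. The 16218 genes that reached 1 CPM in 4 or more libraries were analysed as log2(CPM + 1), computed here from the deposited CPM, with limma 3.58.1 in R 4.3.3: 1 fit of 4 group means over all 16 libraries, moderated with a mean-variance trend, tested two-sided, with p-values adjusted by Benjamini-Hochberg across the tested genes in each of 5 comparisons. The script was tested on simulated data. Intervals are 95% limma intervals and cover the spread between libraries. An exact permutation test of FAH used scipy 1.17.1.

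The members and the gene lists were chosen with earlier results of these data known. One gene of the receptor and signalling list is not reported here. Named were all members, FAH, the other family genes, the 3 genes of at least 5 CPM most correlated with each member, up to 5 genes per list with the largest knockout difference under vehicle, and any tested neighbour; receptor chains and single marker genes beyond that were named after their values were seen. Promoter sequences came from RefSeq (GRCh38.p14), and positions, exons and transcripts from GENCODE 29 (GRCh38).

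Alternatives were pseudocounts of 0.1 and 5, no filter or 1 CPM in all libraries, median-of-ratios rescaling, quantile normalization, limma without the trend, only the libraries of a comparison, a replicate block, and leaving out each of the 16 libraries.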

Additional observations from a re-analysis of the deposited data

Results flagged for a closer look

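Within the groups of 4 libraries, 2 member values lay far from the other 3 by Dixon's criterion, out of 28 groups examined; chance alone gives such a value in about 1 group in 20. IFIT3 was at 14.8 CPM in replicate 3 of control abemaciclib, where the other libraries were at 17.3 to 17.7 CPM. IFITM3 was at 21.3 CPM in replicate 1 of the same group, where the others were at 25.3 to 25.7 CPM. The calls of both genes against control vehicle held without these libraries, at log2 differences of 0.86 for IFIT3 and 0.32 for IFITM3.

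The response to abemaciclib differed between knockout and control cells in 6 members by the limma interaction. Of all tested genes, 6.16% were called lower and 4.68% higher there (5.44% and 5.41% after median-of-ratios rescaling). On the log2 scale the interaction was -0.65 for IFIT1, -0.92 for IFIT2, -0.59 for IFIT3, -0.55 for IFIT5, -0.43 for IFITM1 and -0.32 for IFITM3. The IFITM3 call was lost without the filter on low genes (limma adjusted p = 0.0663). In CPM the IFIT1 difference went the other way, by 7.77 CPM (SE 2.86). IFITM1 is the member whose means moved in opposite directions with the drug in the genotypes and were called in both, by 0.25 in control and -0.19 in knockout cells; the second call was lost after either rescaling.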

How the results depend on the processing

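The 35 member differences were recomputed under 25 alternatives, 16 of which left out 1 library. Of 868 values, 839 kept their direction and their side of the threshold, 20 lost a call, 3 gained one and 6 changed sign. All 6 were of abemaciclib against vehicle in knockout cells, where none of the 3 genes was called: after median-of-ratios rescaling and quantile normalization IFIT5 was 0.0517 and 0.0793, IFITM2 0.0128 and 0.0236, and IFITM3 0.0249 and 0.0271. Members called numbered 7 and 6 for knockout against control under vehicle and abemaciclib in all alternatives, 6 to 7 for abemaciclib in control, 2 to 3 in knockout cells and 5 to 7 for the interaction. With either rescaling the 3 called in knockout cells were all higher. There 19.6% of all tested genes were called higher after median-of-ratios rescaling and 22.1% after quantile normalization. Without the filter 1 was higher and 1 lower, beside 3.33% and 8.63% of all tested genes. The replicate numbers did not pair the libraries: same-numbered libraries of different groups had correlations of -0.04 to 0.05 in their deviations, and 5 of 16 correlated best with their own number. With the replicate block 7, 6, 6, 3 and 6 members were called in the 5 comparisons. IFITM2 was lost for abemaciclib in control cells (limma adjusted p = 0.0602). The block fit called 24.7%, 18.5%, 19.7%, 10.9% and 4.58% of all tested genes higher. It called 13.1%, 11.3%, 31.0%, 27.4% and 6.18% lower. Depth limits IFIT2 most, at 20 to 31 reads in control vehicle libraries, and its pseudocount sets its size: 1.68 with a pseudocount of 0.1 and 0.82 with 5, against 1.40. The strand and the division of shared reads were not tested.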
